A study of Mus musculus with 12 samples.

Results

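Eggs depleted of the decapping enzyme mRNA were set directly against eggs depleted of its cofactor mRNA. The comparison took the 3 samples injected with Dcp2 siRNA and the 3 injected with Dcp1a siRNA, chosen by their titles, which is 6 of the 12 samples measured. All were CF1 mouse eggs at metaphase of the second meiotic division. Each sample pooled the RNA of 30 eggs, and the 3 replicates of a group were labelled as independent biological replicates. Full-grown oocytes had received a commercial pool of several siRNAs to 1 gene, or to both genes, or a control siRNA. They were then kept for 20 h in milrinone, an inhibitor that holds oocytes before meiotic resumption, and matured for 18 h. The 3 control siRNA samples and the 3 samples given both siRNAs went through the same steps, entered the fit, and are shown beside the others. The treatment lowers an mRNA and deletes no gene, protein was not measured here, and effects of the siRNAs on mRNAs other than their targets were not tested.

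Decapping removes the 5′ cap of an mRNA and opens it to 5′-to-3′ digestion. Dcp2 is the catalytic subunit, and Dcp1a binds it and enhances its activity. Full-grown oocytes are nearly silent in transcription, so maturation runs on mRNA stored during growth, and part of that store is degraded before the egg stage. Dcp1a and Dcp2 are themselves stored mRNAs that are translated during maturation. The comparison asks whether loss of the enzyme and loss of the cofactor left the egg with different mRNA levels.

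The arrays were Affymetrix mouse expression chips, which measure a transcript through sets of short probes, and the values are background-corrected, normalized intensities in arbitrary units. A probe set was tested where its intensity exceeded 32 (5 on the log2 scale) in at least 3 of the 12 arrays, which left 11593 of 45037. Differences are Dcp2 siRNA minus Dcp1a siRNA on the log2 scale with the standard error of the fit, 3 arrays against 3, and adjusted p-values are from limma's moderated test, with the Benjamini-Hochberg correction taken over all probe sets in the test. Normalization between arrays sets each intensity against the rest of its array, so a loss of RNA from every transcript alike cannot be seen. Fewer eggs and less RNA per egg cannot be told apart either. Intensities of different genes depend on their probes and were not set against each other.

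Only 7 of the 11593 probe sets passed an adjusted p of 0.05, which is 0.0604%. A pair of probe sets of Dcp1a were higher in the Dcp2 siRNA eggs (0.0173%), and 5 were lower (0.0431%), those of Dcp2, Zfp445, Rlf, Uba6 and Syne1. Beyond the siRNA targets, Rlf and Zfp445 were low wherever Dcp2 siRNA had been injected. Uba6 and Syne1 were high in the Dcp1a siRNA eggs and entered the test only because of those arrays. Below that threshold most of the table leaned to lower values in the Dcp2 siRNA eggs, with 2108 probe sets lower (18.2%) and 456 higher (3.93%) at an unadjusted p under 0.05. With values under 32 set to 32, 0 probe sets passed by limma (470 higher and 2084 lower at an unadjusted p under 0.05), and with any 1 of 5 of the 6 arrays left out at most 1 passed. The lean to lower values depended on how the arrays were scaled and was small on 1 of the 3 Dcp2 siRNA arrays, as described further on.

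The Dcp2 siRNA arrays differed from each other far more than the Dcp1a siRNA arrays did. Across the probe sets tested, Pearson's r was 0.991 to 0.992 among the Dcp1a siRNA arrays and 0.938 to 0.973 among the Dcp2 siRNA arrays. The median SD of a probe set over 3 replicates was 0.159 log2 units with Dcp1a siRNA and 0.376 with Dcp2 siRNA, and it was 0.368 in the control group and 0.274 with both siRNAs. In 82.5% of probe sets the Dcp2 siRNA group had the larger SD of the pair.

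Replicate 2 of the Dcp2 siRNA group stood closer to the Dcp1a siRNA arrays than to its own group. It correlated with them at 0.978 to 0.985 and with the other Dcp2 siRNA arrays at 0.938 to 0.963. Replicate 1 correlated at 0.953 to 0.969 with the Dcp1a siRNA arrays and at 0.963 to 0.973 with its own group. Replicate 3 correlated at 0.926 to 0.947 and at 0.938 to 0.973, respectively. Replicate 2 was the Dcp2 siRNA array nearest to the Dcp1a siRNA mean for 6785 probe sets (58.5%). Counted by probe sets more than 1 log2 unit below the lowest Dcp1a siRNA array, replicates 1, 2 and 3 of the Dcp2 siRNA group had 999, 168 and 2038. In the same order, 112, 55 and 303 probe sets lay more than 1 log2 unit above the highest Dcp1a siRNA array. The Dcp2 probe set was at the floor on all 3 arrays, replicate 2 included, so replicate 2 matched its label.

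**Figure D1:**
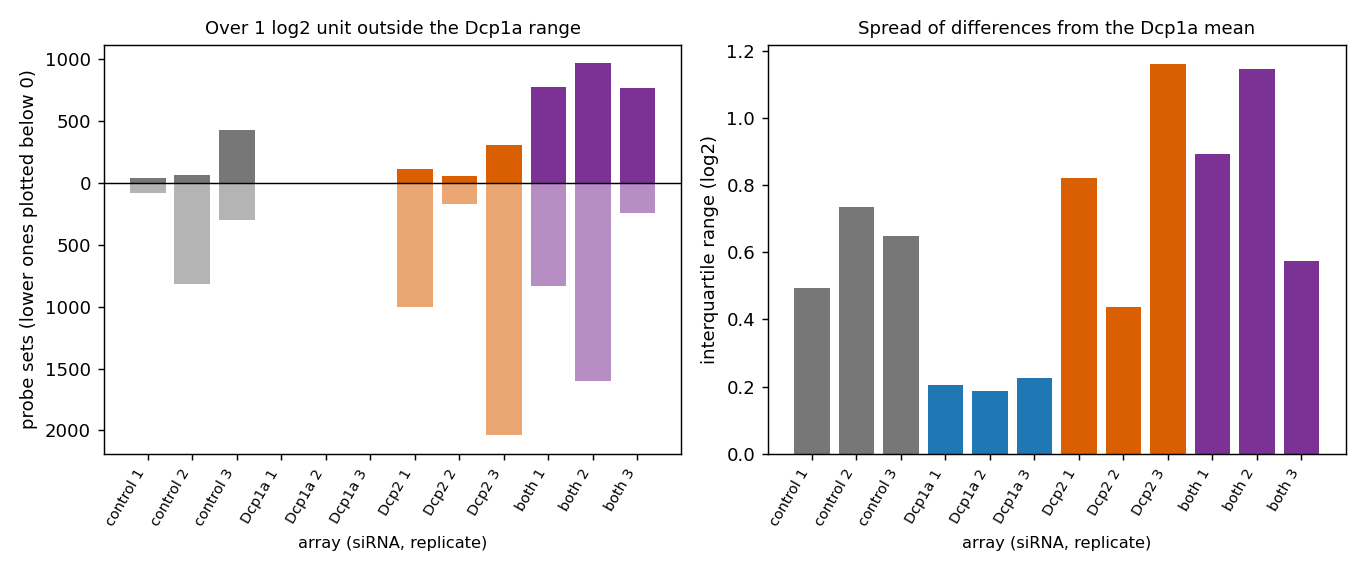
For each of the 12 arrays, the left panel shows the number of probe sets more than 1 log2 unit above the highest (upward bars) or below the lowest (downward bars) Dcp1a siRNA array, which is 0 by construction for those arrays, and the right panel the interquartile range in log2 units of the differences from the Dcp1a siRNA mean, which includes those arrays' own values. The interquartile range was 0.186 to 0.225 for the Dcp1a siRNA arrays and 0.820, 0.436 and 1.16 for Dcp2 siRNA replicates 1, 2 and 3, so replicate 2 is the narrowest of its group.

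The samples were eggs by their markers. All 12 egg markers tested, such as the zona pellucida genes Zp1 to Zp3 and the growth factor Gdf9, were measured on the arrays, with summed intensities of 153562 to 170951 with Dcp1a siRNA and 128823 to 150360 with Dcp2 siRNA. Of 20 cumulus and granulosa markers, 17 did not pass the filter and stayed at or under 32 on all arrays, among them Amh, Fshr and Inha at the lowest value of the table. The list's summed intensity was 2832 to 2952 with Dcp1a siRNA and 2197 to 3399 with Dcp2 siRNA, nearly all of it from Nr5a2 and Col4a1. For markers of stroma, vessels and blood, 11 of 12 were at or under 32 on all arrays and the sums were 107.5 to 118.1 and 104.7 to 112.0. The 5′ probe sets of Gapdh and Actb, which are read against their 3′ probe sets as a sign of RNA integrity, were under the filter level on all 12 arrays, at 2.96 to 4.99 for Gapdh and 2.32 for Actb on the log2 scale. These 5′ probe sets therefore gave no reading of RNA integrity. The middle Gapdh probe set read 6.70, 6.54 and 6.79 with Dcp1a siRNA and 7.60, 6.40 and 7.24 with Dcp2 siRNA. For 18S rRNA the 3′ probe set read 11.46, 10.86 and 11.20 against 11.79, 11.54 and 12.47. The 5′ one read 13.63, 12.98 and 13.32 against 13.46, 12.71 and 13.53, so the gap between the ends was narrower on each Dcp2 siRNA array. The part of RNA integrity in the differences was not tested.

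Each target mRNA was low in its own group. The brightest Dcp1a probe set read 1207.9, 589.3 and 1235.5 in the Dcp1a siRNA eggs and 7448.6, 10247.9 and 6397.2 in the Dcp2 siRNA eggs. Control eggs had 12427.1, 5384.8 and 8082.9, and eggs given both siRNAs 517.7, 1233.3 and 622.3. The highest Dcp1a siRNA array thus lay well below the lowest Dcp2 siRNA array, and the Dcp2 siRNA arrays lay within the control range. Dcp1a was 8.22-fold higher in the Dcp2 siRNA eggs, a log2 difference of 3.04 ± 0.42 (95% confidence interval 2.12 to 3.96, limma adjusted p = 0.0309). By geometric means, 11.8% of the control level remained after Dcp1a siRNA and 96.6% after Dcp2 siRNA.

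The other Dcp1a probe sets were less clear. A dim one read 5.6, 5.2 and 5.6 with Dcp1a siRNA and 24.8, 34.4 and 14.6 with Dcp2 siRNA, which passed (2.09 ± 0.26, limma adjusted p = 0.0220). Both groups there averaged under the filter level, so no fold is given. The remaining Dcp1a probe set read 304.6, 118.3 and 257.6 against 1144.8, 47.2 and 2528.6, with replicate 2 of the Dcp2 siRNA group below the whole Dcp1a siRNA group. It did not pass (1.29 ± 1.66, limma adjusted p = 0.664), and its control arrays ranged from 25.9 to 3376.3.

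Dcp2 itself was a dim signal. Its tested probe set read 32.4, 49.2 and 57.1 in the Dcp1a siRNA eggs and 5.0, 4.9 and 5.0 in the Dcp2 siRNA eggs. Control eggs read 32.2, 30.4 and 81.8, and eggs given both siRNAs 5.0, 4.9 and 4.9. All 6 arrays with Dcp2 siRNA were at the floor of the table, and the other 6 were above it. The fitted difference was −3.18 ± 0.34 (limma adjusted p = 0.0153). Measured against the filter level, Dcp2 was at least 1.41-fold lower, because the true level under the floor is not known. In the Dcp1a siRNA eggs Dcp2 differed from control by 0.06 (limma adjusted p = 0.982). A second Dcp2 probe set was at 4.9 on all arrays and was not tested.

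**Figure D2:**
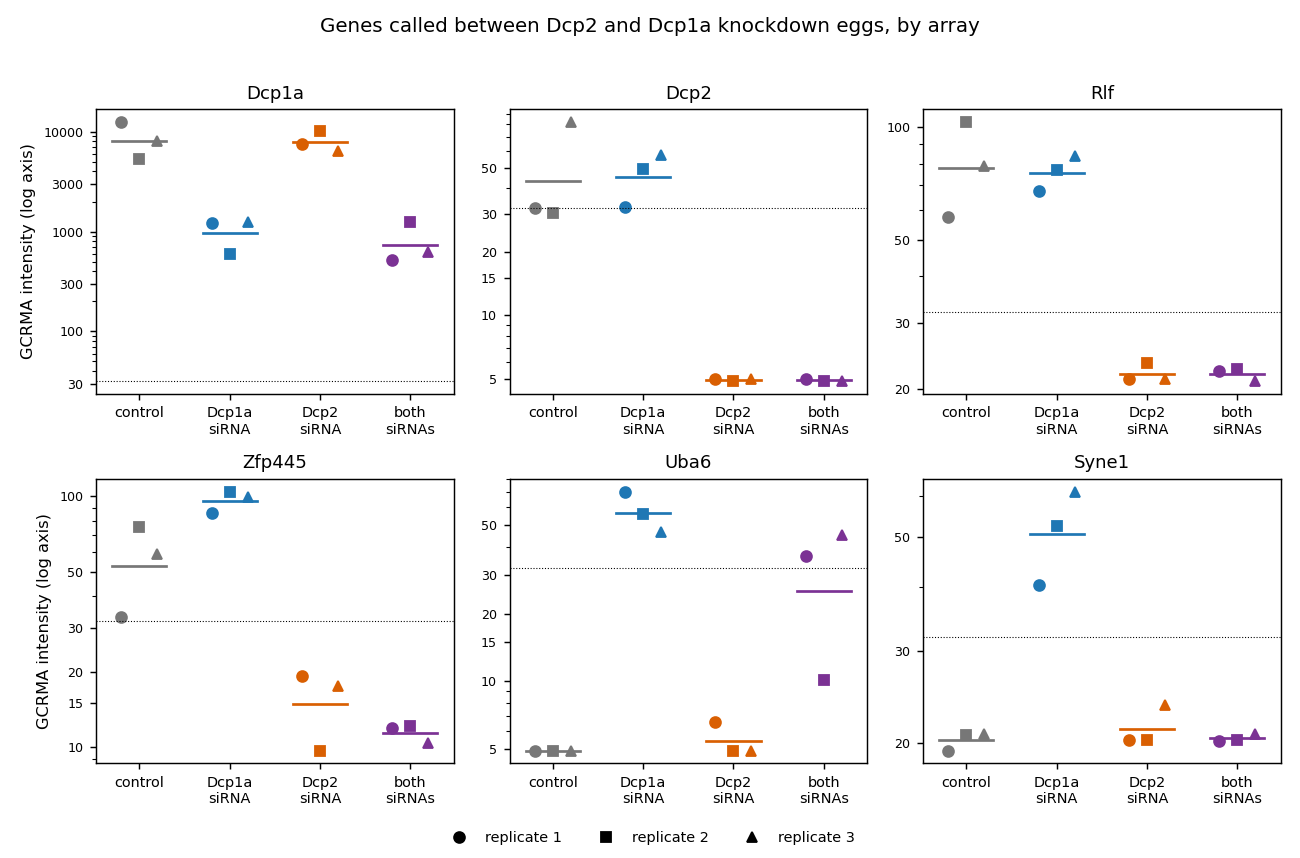
Intensity on a log axis for Dcp1a (its brightest probe set), Dcp2, Rlf, Zfp445, Uba6 and Syne1 on all 12 arrays, with marker shape for the replicate number, short horizontal lines at the geometric mean of each group and a dotted line at an intensity of 32. Rlf and Zfp445 are low in both groups that received Dcp2 siRNA, while Uba6 and Syne1 are higher in the Dcp1a siRNA group than in the control and Dcp2 siRNA groups.

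Rlf and Zfp445, both zinc finger proteins of the nucleus, were lower in the Dcp2 siRNA eggs. Rlf read 67.4, 76.9 and 83.6 with Dcp1a siRNA and 21.2, 23.4 and 21.2 with Dcp2 siRNA. It read 57.6, 103.1 and 79.0 in control eggs and 22.3, 22.6 and 21.0 with both siRNAs. The 6 arrays with Dcp2 siRNA all lay within 21.0 to 23.4, and no array without it fell below 57.6. Rlf was at least 2.36-fold lower (−1.79 ± 0.21, limma adjusted p = 0.0153). Against control, its fitted difference was −0.04 with Dcp1a siRNA (limma adjusted p = 0.982), −1.83 with Dcp2 siRNA (0.0152) and −1.82 with both (0.000475).

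Zfp445, a KRAB zinc finger protein known for keeping parental imprints, read 85.7, 104.1 and 99.9 with Dcp1a siRNA. It read 19.2, 9.7 and 17.5 with Dcp2 siRNA, 32.9, 75.2 and 59.0 in control eggs, and 11.9, 12.1 and 10.4 with both siRNAs. The groups did not overlap, and the control eggs lay between them. Zfp445 was at least 3.01-fold lower (−2.70 ± 0.32, limma adjusted p = 0.0153) by this probe set. Against control, its level with Dcp2 siRNA did not pass (−1.83, limma adjusted p = 0.196), nor did that with Dcp1a siRNA (0.87, limma adjusted p = 0.853). The call rested on 1 of its 3 tested probe sets, since the brighter ones differed by −0.42 and −0.17 and did not pass.

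Uba6 and Syne1 passed because the Dcp1a siRNA arrays were high. Uba6, an enzyme that activates ubiquitin for transfer to proteins, read 70.2, 55.9 and 46.7 with Dcp1a siRNA and 6.6, 4.9 and 4.9 with Dcp2 siRNA. All 3 control arrays were at 4.9, and eggs given both siRNAs read 36.4, 10.1 and 44.9. The Dcp1a siRNA arrays were the highest of the 12 for this probe set, and the Dcp2 siRNA arrays stood at the floor with the controls. Uba6 was at least 1.78-fold lower in the Dcp2 siRNA eggs (−3.39 ± 0.45, limma adjusted p = 0.0257). The fitted difference from control was 3.54 with Dcp1a siRNA (limma adjusted p = 0.0291), 0.14 with Dcp2 siRNA (0.882) and 2.38 with both (0.00816).

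Syne1, which encodes nesprin-1, a nuclear envelope protein that ties the nucleus to the cytoskeleton, read 40.3, 52.4 and 61.0 with Dcp1a siRNA. The other 9 arrays lay close together, at 20.2, 20.2 and 23.6 with Dcp2 siRNA, 19.3, 20.7 and 20.8 in control eggs, and 20.1, 20.2 and 20.8 with both siRNAs. Syne1 was at least 1.58-fold lower in the Dcp2 siRNA eggs (−1.25 ± 0.18, limma adjusted p = 0.0339). Unlike Uba6, it was not high in the eggs that received Dcp1a siRNA together with Dcp2 siRNA, where its difference from control was 0.01. The 3 Dcp1a siRNA arrays were the only ones above 32 for Syne1, so it entered the test through the group where it was high. Uba6 and Dcp2 also needed the Dcp1a siRNA arrays to pass the filter. Outside that group only 36.4 and 44.9 with both siRNAs exceeded 32 for Uba6, and only 32.2 and 81.8 in control eggs for Dcp2. Its call held in 4 of 23 alternative settings, beside 13 of 23 for Uba6, 16 of 23 for Dcp2 and 12 of 24 each for Dcp1a, Rlf and Zfp445. Other probe sets of Rlf, Uba6 and Syne1 did not pass the filter, so each of these calls rests on 1 dim probe set.

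The genes nearest to the threshold that did not pass were taken by smallest p among brighter probe sets. On the lower side, Safb2, a scaffold attachment factor that binds RNA, read 1146.8, 1064.8 and 1155.6 with Dcp1a siRNA and 551.6, 458.8 and 470.9 with Dcp2 siRNA. Control eggs read 1181.6, 1258.9 and 1205.6, and eggs given both siRNAs 659.1, 460.3 and 708.0. Control and Dcp1a siRNA arrays thus sat together at 1064.8 or more, and no array with Dcp2 siRNA exceeded 708.0. The difference was −1.19 ± 0.18 (limma adjusted p = 0.0590).

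Edrf1, named for a role in erythroid differentiation, read 797.2, 483.1 and 686.7 against 146.6, 155.1 and 82.9 (−2.38 ± 0.37, limma adjusted p = 0.0590). It read 479.8 to 666.4 in control eggs and 46.6 to 128.6 with both siRNAs, so again the groups with Dcp2 siRNA were the low ones. Its other tested probe sets differed by −1.88 and 0.30. Tbc1d23, which acts in capture of vesicles at the Golgi, read 164.7, 181.5 and 218.4 against 75.8, 67.4 and 80.1 (−1.33 ± 0.21, limma adjusted p = 0.0630), and another probe set differed by −0.42. The double knockdown, which shares no array with the comparison of the single knockdowns, differed from control by −1.02 for Safb2 (limma adjusted p = 0.00670), −2.79 for Edrf1 (0.00125) and −0.998 for Tbc1d23 (0.0159).

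On the higher side, 6 of the 7 nearest genes had their lowest values on the 3 Dcp1a siRNA arrays, and Cep164 did not. Pdk1, a kinase that inhibits pyruvate dehydrogenase, read 1554.1, 1522.4 and 949.6 with Dcp1a siRNA and 3433.1, 3195.2 and 2657.6 with Dcp2 siRNA. It read 4046.7 to 4434.6 in control eggs and 2804.6 to 3590.9 with both siRNAs, so the Dcp1a siRNA arrays were the lowest 3 of the 12. The difference between the single knockdowns was 1.23 ± 0.21 (limma adjusted p = 0.0827). Dcp1a siRNA eggs differed from control by −1.70, which passed (limma adjusted p = 0.0291), and a dimmer Pdk1 probe set differed by 0.03 between the single knockdowns.

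Cnpy1, a member of the canopy family, read 249.6, 215.0 and 177.3 against 644.2, 581.2 and 510.6 (1.44 ± 0.24, limma adjusted p = 0.0666). Its control arrays lay at 321.5 to 608.3, above all Dcp1a siRNA arrays, and a dimmer Cnpy1 probe set differed by −0.34. Fbxo22, the substrate receptor of a ubiquitin ligase, read 989.7, 1055.0 and 746.6 against 1984.4, 1570.2 and 2260.5 (1.06 ± 0.20, limma adjusted p = 0.113). Control eggs were between the groups or at the lower edge of the Dcp2 siRNA range, at 1340.0 to 1588.3, and a dimmer Fbxo22 probe set differed by −0.06.

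Cep164, a centriole appendage protein, had the widest gap, at 356.5, 367.9 and 355.3 against 2683.6, 2057.0 and 4708.4. Its control arrays were split, with 1580.8 and 1413.0 beside 253.2, the difference of 3.04 ± 0.61 did not pass (limma adjusted p = 0.130), and a brighter Cep164 probe set differed by 0.06. Mbp, Clns1a and Epb41l3, which encode myelin basic protein, a chaperone of splicing proteins and a membrane-skeleton protein, differed by 1.22 ± 0.25, 0.89 ± 0.19 and 0.92 ± 0.20. None of the 3 passed (limma adjusted p = 0.136, 0.141 and 0.145), and in each the 3 Dcp1a siRNA arrays were the lowest of the 12. Other probe sets differed by 0.67 and 0.91 for Mbp, 0.57 for Clns1a and −0.33 for Epb41l3.

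**Figure D3:**
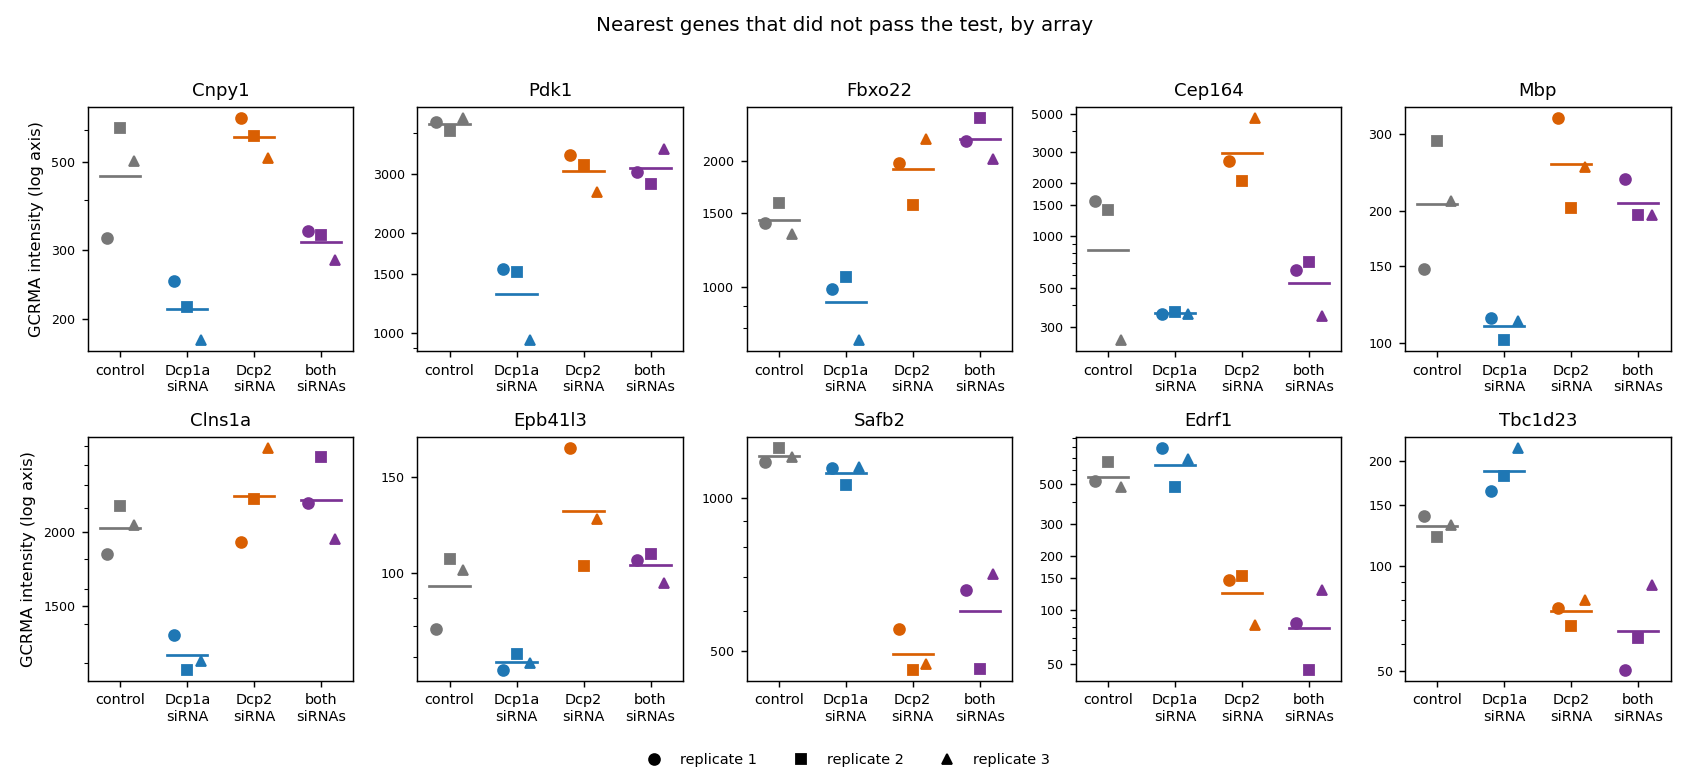
Intensity on a log axis on all 12 arrays for the genes nearest to the threshold that did not pass, with marker shape for the replicate number and short horizontal lines at the geometric mean of each group. In Safb2, Edrf1 and Tbc1d23 both groups given Dcp2 siRNA are low, and in Pdk1, Cnpy1, Fbxo22, Mbp, Clns1a and Epb41l3 the Dcp1a siRNA arrays are the lowest 3 of the 12.

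Over the whole table the Dcp2 siRNA eggs had lower values more often than higher ones. The median difference over the probe sets tested was −0.18, and 64.6% of differences were negative. In 2552 probe sets all 3 Dcp2 siRNA arrays lay below all 3 Dcp1a siRNA arrays (22%), and in 924 they lay above (7.97%). Where the groups did not overlap, 689 probe sets were lower and 57 higher by more than 1 log2 unit, and 22 were lower and 4 higher by more than 2. The median standard error was 0.286, which gives a 95% confidence interval reaching 0.629 to either side, and the smallest difference that passed was 1.25.

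The split depended on scaling. At an unadjusted p under 0.05, 456 probe sets were higher and 2108 lower in the values as deposited. The numbers were 1399 and 941 after median centring of the arrays, 1134 and 1059 after quantile normalization, and 1098 and 1151 after cyclic loess. The median difference moved from −0.18 to 0.11, 0.05 and 0.04, respectively. The excess of lower values in the deposited scale is thus not a property that all scalings share, and the list counts and medians below are in the deposited scale unless another is named.

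**Figure D4:**
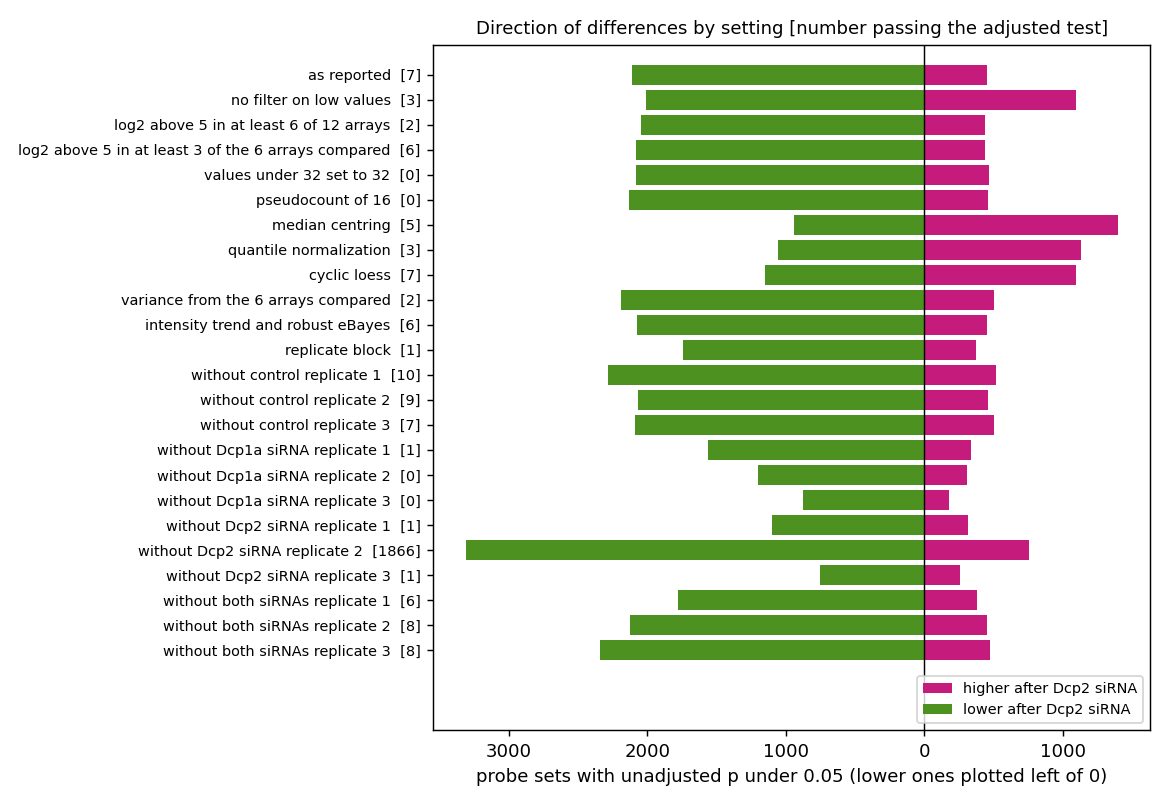
Bars show the number of probe sets higher (right) and lower (left) in Dcp2 siRNA eggs at an unadjusted p under 0.05, and brackets the number that passed the adjusted test, for the values as deposited and for each alternative except array weights. The deposited values give 456 higher and 2108 lower, median centring reverses the excess to 1399 and 941, and leaving out replicate 2 of the Dcp2 siRNA group raises the calls from 7 to 1866.

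The direction of the larger differences recurred in eggs given both siRNAs, which were compared with control and share no array with the single knockdowns. Of all probe sets tested, 51.3% were lower with both siRNAs than in control. Of the 689 that were lower by more than 1 log2 unit with Dcp2 than with Dcp1a siRNA without overlap, 602 (87.4%) were lower with both siRNAs, with a median difference of −0.70. Of these 689, 50 passed as lower and 7 as higher with both siRNAs, where 2.1% and 6.62% of all probe sets passed. Of the 57 that were higher by more than 1, 16 (28.1%) were lower with both siRNAs, and the median was 0.41. Of these 57, 14 passed as higher and 3 as lower with both siRNAs. The 3 include a pair of Dcp1a probe sets and the 50 include that of Dcp2, so the siRNA targets are part of these counts.

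Against the same control arrays, the single knockdowns changed few probe sets. Dcp1a siRNA eggs had 2 higher (0.0173%), Uba6 and Syne1, and 4 lower (0.0345%), a pair for Dcp1a and those of Pdk1 and Snx6. Uba6 and Syne1 passed the filter only because of the Dcp1a siRNA arrays, where they were high. Dcp2 siRNA eggs had 2 lower (0.0173%), Dcp2 and Rlf, and 0 higher by limma. At an unadjusted p under 0.05, 356 probe sets were higher (3.07%) and 927 lower (8%) with Dcp2 siRNA, and 345 were higher (2.98%) and 225 lower (1.94%) with Dcp1a siRNA. These comparisons share the control arrays, so their values are given side by side only. Eggs given both siRNAs had 768 higher (6.62%) and 243 lower (2.1%), and at an unadjusted p under 0.05 1834 (15.8%) and 1394 (12%).

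Longer genes had lower differences than shorter ones on a pair of the 3 arrays. Genes were divided by genomic span into 5 bins of nearly equal size, for 6981 of 6998 genes with 1 representative probe set each. The median difference was −0.03 in the shortest bin (0.377 to 10.2 kb) and then −0.13, −0.18, −0.22 and, in the longest bin (83.3 to 2390 kb), −0.23. From the shortest to the longest bin the median went from 0.01 to −0.31 on Dcp2 siRNA replicate 1 and from −0.02 to −0.26 on replicate 3. It went from −0.08 to −0.05 on replicate 2, so that array did not show the trend. Against control, the bin medians from shortest to longest were 0.07, 0.08, 0.07, 0.12 and 0.16 with Dcp1a siRNA. With Dcp2 siRNA they were −0.002, −0.10, −0.11, −0.13 and −0.07. The longest bin thus had the highest median with Dcp1a siRNA, but not the lowest with Dcp2 siRNA. The part of gene span in the differences was not tested.

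Among 18 gene lists with 578 distinct members tested, Dcp1a and Dcp2 were the only members that passed, beside 0.0714% of all genes. The lists are therefore described by how many members had groups that did not overlap and by their medians, beside all 6998 genes, of which 21.5% were lower and 8.75% higher without overlap and the median was −0.16. After median centring the shares of all genes turned, to 9.67% lower (677) and 23.3% higher (1629). Each list's counts with all arrays are therefore given in both scales. A list median is also given as its distance from the median of all genes. At an unadjusted p under 0.05, 17.7% of all genes were lower and 4.09% higher. Members named below did not pass apart from those targets, and the smallest limma adjusted p among them was 0.145.

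In the decay machinery, the decapping and 5′-to-3′ decay list had 5 of 20 members lower and 2 higher without overlap, and 1 lower and 5 higher after median centring. Its median was −0.25, at a distance of −0.09 from all genes. The list includes Dcp2 among the lower and Dcp1a among the higher members, which are the siRNA targets. Among deadenylation genes, which shorten the poly(A) tail before decapping, 7 of 24 were lower and 3 higher, and 2 lower and 7 higher after median centring, with a median of −0.31 and a distance of −0.15. Cnot11, a subunit of the CCR4-NOT deadenylase, differed by −0.77 ± 0.26, from 1859.7, 1882.3 and 2255.9 with Dcp1a siRNA to 1292.8, 1378.8 and 895.7 with Dcp2 siRNA. Tob2, an adaptor of that complex, differed by −0.49 ± 0.18, and its other probe sets by −0.27, 0.28 and 0.21.

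The exosome, which degrades RNA from its 3′ end, and nonsense-mediated decay had 5 of 21 members lower and 2 higher, and 4 each way after median centring. The median was −0.38, at a distance of −0.22. Exosc3, a cap subunit of the exosome, read 162.5, 127.1 and 175.7 against 36.5, 79.8 and 27.4 (−1.84 ± 0.46). Smg8, a regulator of the Smg1 kinase in nonsense-mediated decay, read 821.4, 858.1 and 950.2 against 443.6, 700.9 and 196.3 (−1.15 ± 0.36). In both genes replicate 2 was the Dcp2 siRNA array nearest to the Dcp1a siRNA range. The shares of lower members in these 3 lists were 25%, 29.2% and 23.8%, beside 21.5% of all genes.

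Stored mRNAs that maturation recruits for translation, here called dormant mRNAs, had 12 of 27 members lower and 1 higher without overlap. Their median was −0.33. Its distance from the median of all genes was −0.17 as deposited, −0.19 after quantile normalization and −0.15 after cyclic loess. Median centring leaves this distance unchanged by construction. The only member higher was Dcp1a, and Dcp2 was among the lower ones. The medians on Dcp2 siRNA replicates 1, 2 and 3 were −0.37, −0.19 and −0.69, beside −0.18, −0.06 and −0.20 for all genes. After median centring 7 were lower and 4 higher, so the count depends on the scaling. The lower share was 44.4% as deposited, beside 21.5% of all genes, and 25.9% after centring, beside 9.67%. The higher share was 3.7%, beside 8.75%, and 14.8%, beside 23.3%.

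Regulators of maternal mRNA translation had 5 of 27 lower and 3 higher, and 3 lower and 8 higher after median centring. The median was −0.06, at a distance of 0.095 from all genes. Dazl, an RNA-binding protein that activates translation of maternal mRNAs, read 4956.2, 5300.1 and 6310.5 with Dcp1a siRNA and 1738.7, 2375.0 and 1232.6 with Dcp2 siRNA. Control eggs read 2757.1, 3255.7 and 2890.1, and so lay between the groups without overlap. The difference was −1.68 ± 0.36, and a second Dazl probe set differed by −1.41, neither passing. Cpeb3, which binds cytoplasmic polyadenylation elements, differed by −0.88 ± 0.23, while its other tested probe sets differed by −1.20 and 0.20. In the small RNA list 2 of 12 were lower and 1 higher, and 1 lower and 2 higher after median centring, with −1.06 ± 0.37 for Piwil1, a PIWI protein, and 0.61 ± 0.27 for Ago3, an Argonaute, whose other probe sets differed by −0.92, −0.51 and 0.22.

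Oocyte and maternal-effect genes had 10 of 45 lower and 1 higher, and 7 lower and 9 higher after median centring. The median was −0.21, at a distance of −0.05. The chromatin insulator protein Ctcf read 12130.6, 11989.2 and 14206.0 against 7891.4, 7290.9 and 6241.8 (−0.84 ± 0.19), with −0.18 at another probe set. The de novo DNA methyltransferase Dnmt3a read 4793.7, 4745.6 and 4902.7 against 3218.5, 2489.2 and 2804.3 (−0.77 ± 0.21). Its other probe sets ranged from −0.58 to 0.63. In the meiotic cell cycle list 17 of 58 were lower and 5 higher, but 7 were lower and 10 higher after median centring and 8 each way after quantile normalization. The median was −0.26, at a distance of −0.10. The kinetochore protein Ndc80 differed by −0.83 ± 0.28 and the spindle checkpoint protein Bub3 by −0.85 ± 0.30, with −0.74 at another Bub3 probe set.

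Proteasome subunits, which degrade ubiquitinated proteins, had 10 of 33 lower and 4 higher, but 3 lower and 5 higher after median centring and 5 each way after quantile normalization. The median was −0.42, at a distance of −0.26 from all genes. The medians on replicates 1, 2 and 3 were −0.43, −0.04 and −0.53, beside −0.18, −0.06 and −0.20 for all genes, so replicate 2 was not low. Its members with the smallest p went the other way. Psmd6, a lid subunit, read 820.5, 765.1 and 638.7 with Dcp1a siRNA, 1807.0, 1080.3 and 1668.4 with Dcp2 siRNA, and 1092.7 to 1489.0 in control eggs (1.01 ± 0.22). Psmc4, an ATPase of the base, differed by 0.65 ± 0.22. Dimmer probe sets of Psmd6 and Psmc4 differed by −0.28 and −0.14.

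The ribosomal protein and oxidative phosphorylation lists had medians above that of all genes. Cytosolic ribosomal protein genes had 6 of 38 higher and 5 lower without overlap, and 13 higher and 3 lower after median centring, with a median of 0.04, which is 0.20 above all genes. Mitochondrial ribosomal protein genes had 6 of 60 each way, and 15 higher and 2 lower after median centring, with a median of −0.02, 0.14 above all genes. Oxidative phosphorylation had 11 of 70 higher and 6 lower, and 21 higher and 4 lower after median centring, with a median of 0.05, 0.21 above all genes. For these 3 lists the median also stayed above that of all genes after quantile normalization and cyclic loess, by 0.12 to 0.24. Median centring shifts all genes alike and cannot change this distance.

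The distance was uneven over the replicates, whose medians over all genes were −0.18, −0.06 and −0.20. The cytosolic ribosome median was 0.26, −0.05 and −0.06 on Dcp2 siRNA replicates 1, 2 and 3, and the oxidative phosphorylation median was 0.23, −0.03 and 0.00. Both lie above all genes on each array, furthest on replicate 1 and least on replicate 2. The mitochondrial ribosome median was 0.08, −0.10 and 0.00, and on replicate 2 it lay below all genes. Ndufb6, a complex I subunit, read 4264.7, 3827.0 and 3483.3 against 7931.2, 5208.5 and 5994.6 (0.71 ± 0.20), with 0.03 at another probe set. Sdha, the catalytic subunit of complex II, went the other way (−0.90 ± 0.29), with 0.10 at another probe set. Mrpl9 and Mrpl16 of the mitochondrial ribosome differed by 0.91 ± 0.25 and −1.01 ± 0.27, with −0.02 at a second Mrpl9 probe set. Fau and Rplp2, which encode cytosolic ribosomal proteins, differed by 0.77 ± 0.28 and −0.80 ± 0.29.

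Of the nuclear lists, splicing had 16 of 55 lower and 5 higher (median −0.21, distance −0.06), and chromatin had 12 of 45 lower and 3 higher (median −0.18). Both counts turned after median centring, as did those of all genes. Splicing then had 7 lower (12.7%) and 15 higher (27.3%), and chromatin 8 lower (17.8%) and 11 higher (24.4%). The shares of all genes were 9.67% and 23.3%. The distance of the chromatin median from all genes was −0.02 as deposited and 0.05 after quantile normalization. Sf3a1, a subunit of splicing factor SF3a, differed by −1.55 ± 0.45, with −0.61 and 0.01 at other probe sets. Hnrnpr, an RNA-binding protein, differed by 0.57 ± 0.17, with −0.40 and −0.14 at other probe sets. The Polycomb protein Eed differed by −0.94 ± 0.31 and the histone methyltransferase Suv39h2 by −0.73 ± 0.21, with −0.57 and −0.69 at other Suv39h2 probe sets. Histone genes had 3 of 10 lower and 2 higher, and 2 lower and 3 higher after median centring, with 1.07 ± 0.31 for H2aj and −0.82 ± 0.28 for H2az2.

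For zygotic genome activation, which follows fertilization, 4 of 12 genes were lower and 1 higher in both scales (median −0.20, distance −0.04). Hspa1b, a heat shock gene active at that time, read 13.2, 9.6 and 12.4 against 16.3, 72.7 and 30.9, and 51.5 to 86.6 in control eggs, so that all but 1 of the 6 arrays compared were under 32. Gata6, a transcription factor of primitive endoderm, had a fitted difference of −0.95 ± 0.33 near the filter level. In the p53, apoptosis and stress list 7 of 24 were lower and 2 higher, and 3 lower and 4 higher after median centring (median −0.23, distance −0.08), with −0.77 ± 0.23 for the mitochondrial chaperonin Hspe1 and −0.67 ± 0.21 for Gadd45a, a gene induced by DNA damage that lay near the filter level. Interferon response genes, which double-stranded RNA can induce, had 1 of 7 each way, and 1 lower and 4 higher after median centring, with a median of 0.08. Eif2ak2, the kinase activated by double-stranded RNA, differed by 0.44 ± 0.24 and Adar, which edits double-stranded RNA, by −0.69 ± 0.44 near the filter level.

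**Figure D5:**
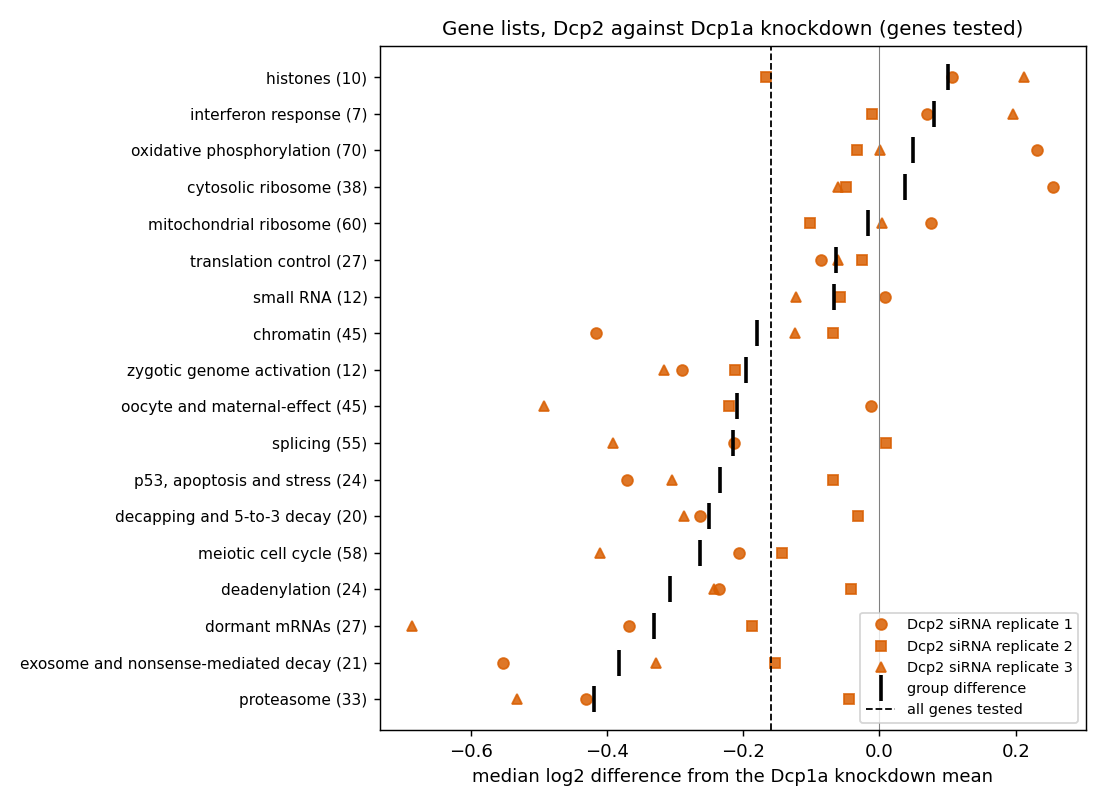
Median log2 difference, Dcp2 siRNA minus Dcp1a siRNA, of each gene list over its tested members, with the median on each Dcp2 siRNA replicate shown by its own marker. The oxidative phosphorylation and ribosome lists lie near 0 and the proteasome and dormant mRNA lists lie below the all-gene median of −0.16, and the replicates of a list of most lists are far apart.

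The number of calls depended on replicate 2 of the Dcp2 siRNA group more than on any other array. Without it 1866 probe sets passed, 223 higher (1.92%) and 1643 lower (14.2%), with all 7 of the original calls among them. That array is the one closest to the Dcp1a siRNA group, so the fit without it is a check of dependence and not an estimate of the difference. On replicate 2 itself, 889 of the 1643 lower probe sets were below the Dcp1a siRNA range, 619 within it and 135 above it. Of the 223 higher ones, 156 were above that range, 49 within it and 18 below it. The same shares over all probe sets tested were not counted for replicate 2, so these numbers have no background to be read against. Leaving out any 1 of the other 5 arrays of the comparison left at most 1 call. Leaving out a control array gave 7 to 10 calls, and leaving out an array of eggs given both siRNAs 6 to 8. Without Dcp1a siRNA replicate 1 the 1 call was Dcp2. Without Dcp1a siRNA replicates 2 and 3 in turn limma gave 0, with 310 higher and 1202 lower and with 176 higher and 873 lower at an unadjusted p under 0.05. Without Dcp2 siRNA replicate 1 the 1 call was Trdn, which is outside the naming rule and is none of the 7, and without replicate 3 it was the dim Dcp1a probe set.

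With replicate 2 left out, 977 of all genes were lower (14%) and 140 higher (2%), and the lists lay on either side of these shares. The counts of this fit are in the deposited scale only, with its lean to lower values, and were not repeated after median centring. The lower share was 33.3% for dormant mRNAs (9 of 27, with Dcp2 among them), 25% for p53 and stress genes, 23.8% for the exosome and nonsense-mediated decay, 20% for chromatin and 14.8% for translation control. It was 12.5% for deadenylation, 12.1% each for the meiotic cell cycle and the proteasome, 10% each for decapping and histones, 9.09% for splicing and 8.89% for oocyte and maternal-effect genes. It was 8.33% each for small RNA and zygotic genome activation, 5.26% for the cytosolic ribosome, 4.29% for oxidative phosphorylation and 3.33% for the mitochondrial ribosome. Interferon response genes had 0 of 7 by limma, with 1 higher and 0 lower at an unadjusted p under 0.05. Oxidative phosphorylation had 4 members higher and 3 lower, histones 2 higher and 1 lower, and the mitochondrial ribosome 2 each way. Each of the remaining lists had at most 1 member higher. Safb2, Edrf1, Tbc1d23, Pdk1, Cnpy1, Fbxo22 and Dazl, which missed the threshold with all arrays, had limma adjusted p-values between 0.0244 and 0.0281 in that fit. Among the named genes that still missed it were Cnot11, Dnmt3a and Tob2 (0.0596, 0.0706 and 0.0806). The array left out was the one nearest to the Dcp1a siRNA group, so these p-values lend no support to a difference in any of these genes.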

How the data were processed

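RNA of 30 eggs per sample was amplified and hybridised, per the labels' protocols. The authors made the deposited intensity values with GCRMA, per the submitters' processing notes, the version not given in the sources used here. The values are linear with a minimum of 4.9, and 55.6% of them are at or under 5, so folds of dim probe sets are given as bounds against an intensity of 32 and the array's own value. Values were taken to log2 and 64 control probe sets left out. Of those tested, 10699 had 1 symbol in the platform annotation, updated through Entrez numbers in the RefSeq table of GRCm38.p6, 334 had several and 560 none. A gene in a list was represented by its brightest tested probe set. Group means over all 12 arrays were fitted with limma 3.58.1 under R 4.3.3 (lmFit, then eBayes with no trend, 8 residual and 2.97 prior degrees of freedom, two-sided). The procedure was tested on simulated data.

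Named were both siRNA targets, every other gene that passed, the genes of smallest p with a group mean above 7 on the log2 scale up to 8 in each direction, and the pair of smallest p from each list. The comparison, the lists and the naming rule were chosen with earlier results of these data known. Alternatives covered the filter, a floor, a pseudocount, the scaling, the variance, array weights, a replicate block and each array left out. No sequence was used. Precision is limited by the number of arrays.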

Additional observations from a re-analysis of the deposited data

How the results depend on the processing

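The 7 calls depended on most settings. There were 3 without a filter, all on probe sets that step between 4.9 and 5 units and none of the 7. There were 2 with a filter on 6 arrays, 0 with a floor of 32 (470 higher and 2084 lower at an unadjusted p under 0.05 by limma), 0 with a pseudocount of 16 (462 and 2130), 3 after quantile normalization, 2 with the variance from the 6 arrays alone, 1 with a replicate block and 6524 with array weights, whose estimation did not reach its convergence tolerance. Leaving out 1 array gave 0 to 1866. Dcp1a kept 3.04 but missed the threshold without a filter (limma adjusted p = 0.215), with the filter on 6 arrays (0.0581), with the floor (0.0684), with the variance of 6 arrays (0.107) and with the replicate block (0.116), and gave 3.02 with the pseudocount (0.0615). Its range with 1 array left out was 2.69 to 3.22. Dcp2 gave −3.18 without a filter (0.0925), −0.49 with the floor (0.395) and −1.55 with the pseudocount (0.0870), and −3.42 to −3.01 with 1 array left out. Nr5a2 turned to 0.065 after median centring and 0.013 after cyclic loess, and Kdr to 0.10 after median centring and 0.044 after quantile normalization. The cause of these moves was not tested. Same-numbered arrays of the single knockdowns correlated at 0.13, 0.26 and −0.11 in their deviations from the group mean. Differently numbered ones correlated at −0.50 to 0.46. With 3 arrays per group these values cannot tell whether the replicate numbers pair the samples. Of named values under the alternatives, 1141 kept their direction and side of the threshold, 86 passed newly, 81 no longer passed and 4 changed sign. Of list medians 170 moved by less than the replicate spread and 61 by more.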
